A study of Mus musculus with 20 samples.

Results

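The genes described here encode 8 proteins of the neutrophil: lactotransferrin (Ltf), the cathelicidin Camp, neutrophilic granule protein (Ngp), lipocalin 2 (Lcn2), the calprotectin subunits S100a8 and S100a9, neutrophil collagenase (Mmp8) and gelatinase B (Mmp9). They were picked by gene symbol, with earlier results of these data known. Each had 1 probe set that the platform annotation assigns to it alone, so 8 of 22180 genes with a named probe set are members, and all 8 were among the 16638 genes bright enough to be tested.

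Neutrophils fill their granules in sequence as they mature. Primary granules with myeloperoxidase and serine proteases form first in promyelocytes. Secondary (specific) granules with lactotransferrin, cathelicidin, lipocalin 2 and collagenase follow in myelocytes, in mice and humans under control of the transcription factor C/EBP epsilon. Gelatinase-rich tertiary granules come last, while the calprotectin subunits accumulate in the cytosol. Immature myeloid progenitors are therefore upstream of the stage at which these genes are usually at their highest.

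RNA was hybridized to 20 whole-transcript arrays, each from marrow cells of female mice with a C57BL/6 background. The Rptor groups came from mice with the alleles CreER-Rptor-flox/flox, which allow Cre to remove part of the gene for Raptor, the scaffold of the kinase complex mTORC1, and the reference groups came from wild-type (WT) mice. The 6 groups were Rptor CMP and WT CMP (common myeloid progenitors, 3 arrays each), Rptor GMP and WT GMP (granulocyte-macrophage progenitors, 3 arrays each), and Rptor Lin- + M-CSF and WT Lin- + M-CSF (4 arrays each). CMPs and GMPs were lysed after the sort, whereas the lineage-negative (Lin-) cells were first cultured for 12 h with macrophage colony-stimulating factor (M-CSF) at 10 ng/ml. The labels leave out the promoter that drives CreER, any induction of Cre and its time, and the CreER status of the WT mice. They do not tie replicates to separate animals either, so the p-values reflect the spread among these particular arrays, part or all of which may be technical. The Rptor probe set was at 8.20, 8.37 and 8.45 in Rptor CMPs, against 8.72, 8.51 and 8.68 in WT CMPs, and its difference was not called in any population (limma, adjusted p = 0.163 in CMPs, 0.465 in GMPs and 0.305 in the cultured cells). Where that probe set lies relative to the floxed exons is not stated, so it does not check the genotype labels.

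Promoters are shown for 5 members, because Ltf, Camp and Ngp were lower together in Rptor CMPs and GMPs while Lcn2 and S100a8 were higher in Rptor GMPs. The sequences are the 250 bases before each start in RefSeq (build GRCm38.p6), and 7 members were matched to a promoter. That of Mmp9 was not analysed here. They lie at chr9:111019042-111019291 on the plus strand for Ltf, chr9:109849457-109849706 on the minus strand for Camp, chr9:110419558-110419807 on the plus strand for Ngp, chr2:32387740-32387989 on the minus strand for Lcn2 and chr3:90668821-90669070 on the plus strand for S100a8. Capitals mark the C/EBP pattern TTGCNNAA and the PU.1 and ETS pattern GAGGAA, each searched on both strands, and no match of one overlapped a match of the other.
Ltf: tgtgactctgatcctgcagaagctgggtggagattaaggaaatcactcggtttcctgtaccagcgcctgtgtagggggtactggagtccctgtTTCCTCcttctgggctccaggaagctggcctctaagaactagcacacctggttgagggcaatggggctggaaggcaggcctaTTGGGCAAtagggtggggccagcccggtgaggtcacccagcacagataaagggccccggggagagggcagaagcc
Camp: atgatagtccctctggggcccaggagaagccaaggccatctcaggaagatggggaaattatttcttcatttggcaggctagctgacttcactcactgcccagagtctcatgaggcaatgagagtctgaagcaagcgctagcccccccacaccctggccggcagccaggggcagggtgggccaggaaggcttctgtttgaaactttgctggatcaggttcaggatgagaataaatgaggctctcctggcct
Ngp: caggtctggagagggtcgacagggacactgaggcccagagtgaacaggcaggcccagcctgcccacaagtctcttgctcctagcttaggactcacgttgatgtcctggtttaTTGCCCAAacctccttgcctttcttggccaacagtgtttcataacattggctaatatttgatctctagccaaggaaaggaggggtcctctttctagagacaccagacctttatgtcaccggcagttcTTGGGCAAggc
Lcn2: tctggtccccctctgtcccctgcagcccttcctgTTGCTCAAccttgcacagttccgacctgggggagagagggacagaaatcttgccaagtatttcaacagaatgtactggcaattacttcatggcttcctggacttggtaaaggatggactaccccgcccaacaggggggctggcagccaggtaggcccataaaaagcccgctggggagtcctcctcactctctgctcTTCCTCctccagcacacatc
S100a8: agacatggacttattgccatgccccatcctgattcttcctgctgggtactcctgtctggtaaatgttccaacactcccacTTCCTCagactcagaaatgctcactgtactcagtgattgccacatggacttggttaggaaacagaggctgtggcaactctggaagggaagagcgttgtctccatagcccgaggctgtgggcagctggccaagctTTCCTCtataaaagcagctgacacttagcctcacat
The C/EBP pattern occurred in the promoters of 5 of 7 members (Ltf, Ngp, Lcn2, S100a9 and Mmp8) and in 9.56% of all 32851 promoters of that length. It was not among these letters for Camp or S100a8. The GAGGAA pattern occurred for 4 of 7 members (Ltf, Lcn2, S100a8 and Mmp8) and in 23.3% of all promoters. The TATA pattern TATAAA was present for S100a8 and in 12.4% of all promoters, the Runx pattern TGTGGT for S100a9 and in 14%, the Gfi1 pattern AAATCA for Ltf and Mmp8 and in 12.4%, and the Klf pattern CACCC for Ltf, Camp, S100a9 and Mmp8 and in 52.0%. A looser C/EBP pattern, TTNNGNAAT, was present for Ltf, Ngp and S100a9 and in 10.2% of promoters, while the longer PU.1 pattern AGAGGAAG (3.67%), an NF-kB pattern with 1 free base (0.356%) and the E box CACGTG (6.02%) occurred for 0 of 7 members. Camp, Ngp and Ltf share a stretch of chromosome 9, with 570.4 kb between the starts of Camp and Ngp and 599.5 kb between those of Ngp and Ltf, and the starts of S100a8 and S100a9 are 26.65 kb apart on chromosome 3.

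In CMPs, 5 of the 8 genes were lower in Rptor cells, namely Ltf, Camp, Ngp, S100a8 and Mmp9, and none was called higher. In GMPs Ltf, Camp, Ngp and Mmp9 were also lower, and Lcn2 and S100a8 were higher. In Lin- + M-CSF cells Mmp8 and Mmp9 were lower and the other 6 were not called. A call is an adjusted p under 0.05 from limma over all tested genes. Of all tested genes, 11.4% were called in CMPs (6.01% higher and 5.44% lower), 11.9% in GMPs (4.37% higher and 7.53% lower) and 12.5% in the cultured cells (6.82% higher and 5.73% lower). The median difference of the members (Rptor minus WT, log2 units) was -1.27 in CMPs, -0.93 in GMPs and -0.24 in cultured cells, beside -0.01, 0.02 and 0.01 for all tested genes. Groups did not overlap for 7 of 8 members in CMPs, 7 of 8 in GMPs and 3 of 8 after culture, where 30.8%, 32.4% and 13.9% of all tested genes had groups that did not overlap.

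**Figure D1:**
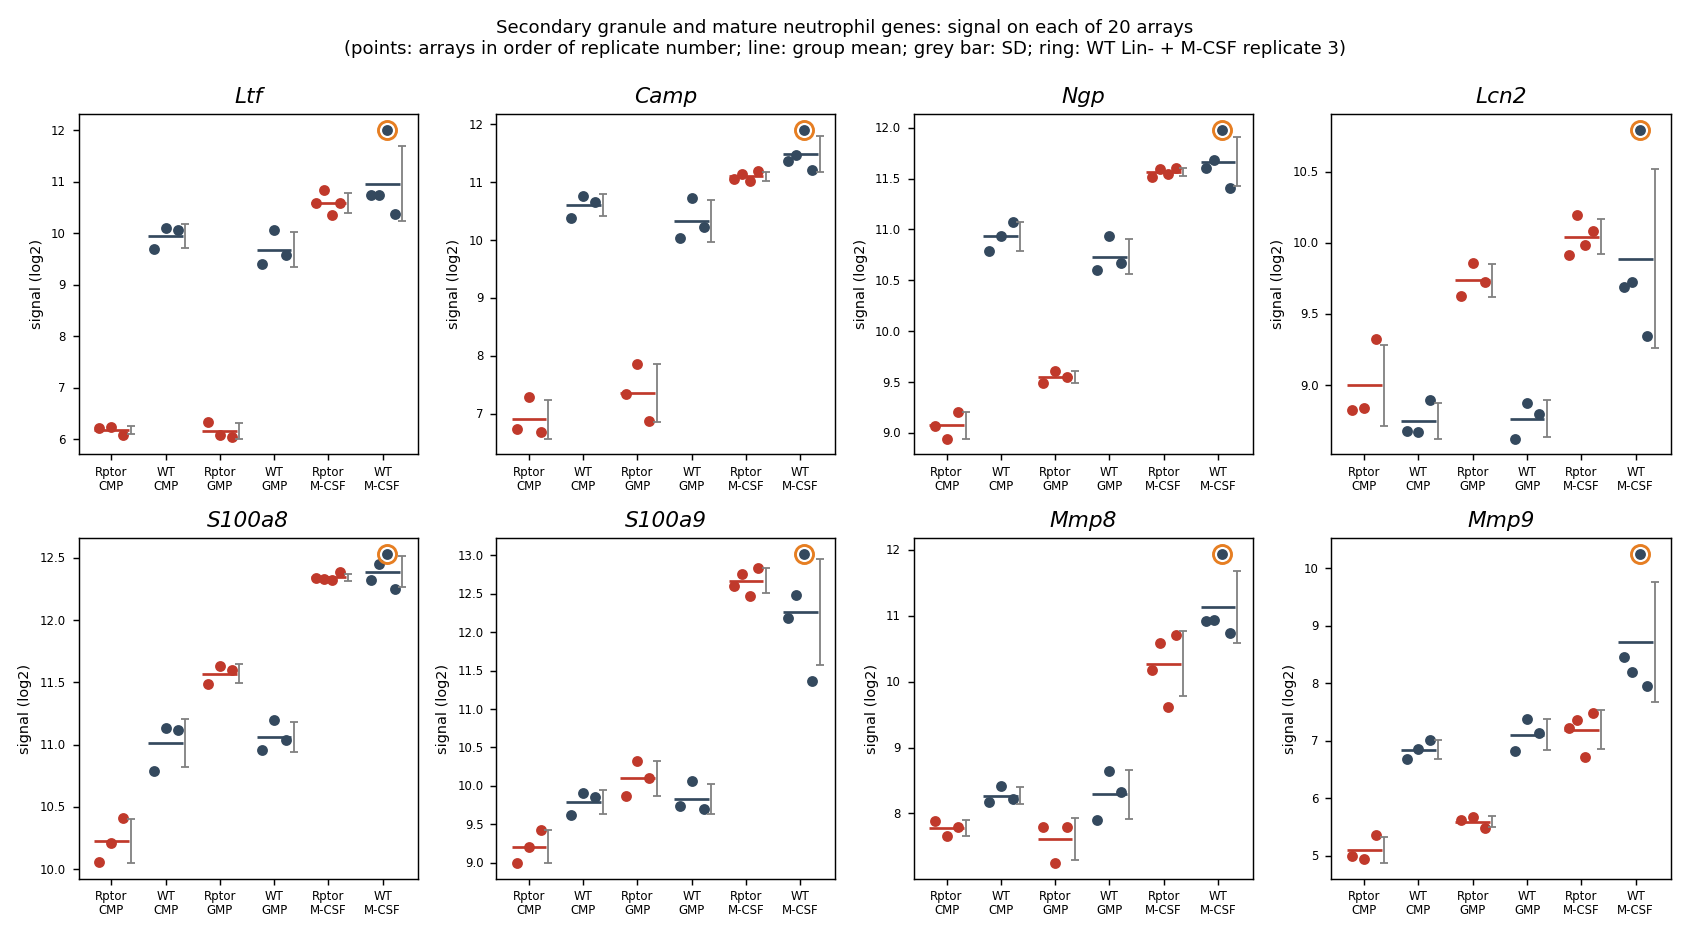
Signal in log2 units (vertical axis, a separate range for each gene) of the 8 genes on each of the 20 arrays, by group (horizontal axis), with Rptor arrays in red and WT arrays in dark blue. Lines are group means, grey bars the SD over arrays, and the ring marks WT Lin- + M-CSF replicate 3, the highest WT Lin- + M-CSF array in every panel; the Ltf and Camp arrays of Rptor CMPs and GMPs lie below 8 and those of the other groups above 9.

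Ltf, the iron-binding protein that defines secondary granules, had, with Camp, the largest genotype differences of the 8 genes. Its signal was 6.22, 6.24 and 6.09 in Rptor CMPs, against 9.69, 10.10 and 10.06 in WT CMPs. In GMPs it was 6.33, 6.09 and 6.05 in Rptor arrays, against 9.41, 10.06 and 9.58 in WT arrays. Every Rptor array of these populations was more than 3 log2 units below every WT array of the same population. The difference was -3.77 ± 0.27 in CMPs (SE, limma, adjusted p = 4.53e-09), a 13.6-fold lower signal, and -3.53 ± 0.27 in GMPs (adjusted p = 1.04e-08). After culture with M-CSF the Rptor arrays were at 10.58, 10.83, 10.36 and 10.58, against 10.74, 10.74, 12.01 and 10.37 in WT arrays. These groups overlapped, and the difference of -0.38 ± 0.23 was not called (adjusted p = 0.33). Without WT replicate 3 it was -0.03 ± 0.15 (adjusted p = 0.941).

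Camp, the precursor of the antimicrobial peptide cathelicidin, was lower in the same populations. It read 6.73, 7.29 and 6.67 in Rptor CMPs, against 10.39, 10.76 and 10.66 in WT CMPs, and 7.33, 7.86 and 6.87 in Rptor GMPs, against 10.03, 10.74 and 10.22 in WT GMPs. The difference was -3.70 ± 0.22 in CMPs (limma, adjusted p = 4.95e-10) and -2.97 ± 0.22 in GMPs (adjusted p = 7.37e-09). Rptor Lin- + M-CSF arrays were at 11.06, 11.14, 11.03 and 11.19, against 11.36, 11.48, 11.91 and 11.21 in WT arrays. All 4 Rptor arrays were below all 4 WT arrays (exact permutation p = 0.0286, two-sided, the smallest that 4 against 4 can give), yet the limma difference of -0.38 ± 0.19 was not called (adjusted p = 0.216), and without WT replicate 3 it was -0.24 ± 0.19 (adjusted p = 0.491). Over the 20 arrays the mean-centred profiles of Ltf and Camp were the closest of the 28 pairs of members, with a root mean square difference of 0.34 log2 units.

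Ngp, a cystatin-like granule protein, was lower by a smaller amount. Its signal was 9.07, 8.94 and 9.21 in Rptor CMPs, against 10.79, 10.93 and 11.08 in WT CMPs, and 9.49, 9.61 and 9.55 in Rptor GMPs, against 10.60, 10.93 and 10.67 in WT GMPs. The difference was -1.86 ± 0.13 in CMPs (limma, adjusted p = 3e-09) and -1.18 ± 0.13 in GMPs (adjusted p = 1.16e-06). Among cultured cells the Rptor arrays were at 11.52, 11.60, 11.54 and 11.60, against 11.60, 11.68, 11.98 and 11.40 in WT arrays. The Rptor arrays there lay within the WT range, with a difference of -0.10 ± 0.11 (adjusted p = 0.616).

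Lcn2, which binds bacterial siderophores and so withholds iron, did not share the losses of Ltf, Camp and Ngp. It was at 8.83, 8.84 and 9.32 in Rptor CMPs, against 8.68, 8.67 and 8.90 in WT CMPs, groups that overlapped, with a difference of 0.25 ± 0.23 that was not called (limma, adjusted p = 0.643). In GMPs the Rptor arrays were at 9.63, 9.86 and 9.72, against 8.62, 8.87 and 8.80 in WT arrays. It was higher in every Rptor GMP array than in every WT GMP array, by 0.97 ± 0.23 (adjusted p = 0.00725), a 1.96-fold higher signal. After culture it was at 9.91, 10.19, 9.98 and 10.08 in Rptor arrays, against 9.69, 9.73, 10.80 and 9.35 in WT arrays. The 4 Rptor arrays lay above 3 WT arrays and below WT replicate 3, and the difference of 0.15 ± 0.20 was not called (adjusted p = 0.694).

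S100a8, a calcium-binding subunit of calprotectin, changed in opposite directions in CMPs and GMPs. Its signal was 10.06, 10.21 and 10.41 in Rptor CMPs, against 10.79, 11.13 and 11.12 in WT CMPs. In GMPs it was 11.49, 11.63 and 11.60 in Rptor arrays, against 10.96, 11.20 and 11.04 in WT arrays. It fell by 0.79 ± 0.11 in Rptor CMPs (limma, adjusted p = 4.96e-05) and rose by 0.51 ± 0.11 in Rptor GMPs (adjusted p = 0.0049). The groups did not overlap in either population. After culture with M-CSF the Rptor arrays spanned 12.32 to 12.39 and the WT arrays 12.25 to 12.53, a difference of -0.05 ± 0.10 (adjusted p = 0.832).

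S100a9, the other calprotectin subunit, gave values on the same side as S100a8 in CMPs and GMPs, but neither difference was called in the fit of all arrays. It was at 9.0, 9.20 and 9.43 in Rptor CMPs, against 9.62, 9.91 and 9.86 in WT CMPs, which did not overlap (difference -0.59 ± 0.26, limma, adjusted p = 0.173). That difference was called with the CMP arrays fitted alone (adjusted p = 0.0163) and with array weights (adjusted p = 0.0317). It was at 9.87, 10.32 and 10.10 in Rptor GMPs, against 9.73, 10.06 and 9.70 in WT GMPs, which did overlap (0.27 ± 0.26, adjusted p = 0.609). Rptor Lin- + M-CSF arrays were at 12.60, 12.75, 12.47 and 12.84, against 12.19, 12.49, 13.02 and 11.36 in WT arrays. The WT arrays there spread over 1.66 log2 units and enclosed the Rptor arrays, and the difference of 0.40 ± 0.22 was not called (adjusted p = 0.263).

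Mmp8, the neutrophil collagenase, was called after culture alone in the fit of all arrays, and its calls depended on the arrays fitted. It was at 7.89, 7.65 and 7.79 in Rptor CMPs, against 8.17, 8.42 and 8.22 in WT CMPs (-0.49 ± 0.28, limma, adjusted p = 0.333), and at 7.79, 7.24 and 7.79 in Rptor GMPs, against 7.91, 8.65 and 8.32 in WT GMPs (-0.68 ± 0.28, adjusted p = 0.124). The groups were separated by 0.28 log2 units in CMPs and 0.11 in GMPs. Neither difference was called, but both were with the arrays of that population fitted alone (adjusted p = 0.0157 in CMPs and 0.0482 in GMPs). In Lin- + M-CSF cells the Rptor arrays were at 10.18, 10.59, 9.61 and 10.71, against 10.93, 10.94, 11.94 and 10.73 in WT arrays. The groups were separated by 0.02 log2 units, and the difference of -0.86 ± 0.24 was called (adjusted p = 0.0209). The call was lost without WT replicate 3 (-0.59, adjusted p = 0.0739), without Rptor replicate 3 (-0.64, adjusted p = 0.0811) and without Rptor replicate 1 (-0.83, adjusted p = 0.0505), and with the cultured arrays fitted alone (adjusted p = 0.109).

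Mmp9, the gelatinase of tertiary granules, was lower in Rptor cells of every population. Its signal was 4.99, 4.95 and 5.36 in Rptor CMPs, against 6.67, 6.85 and 7.0 in WT CMPs, and 5.63, 5.66 and 5.48 in Rptor GMPs, against 6.82, 7.37 and 7.13 in WT GMPs. In Lin- + M-CSF cells it was 7.22, 7.35, 6.72 and 7.49 in Rptor arrays, against 8.45, 8.20, 10.25 and 7.95 in WT arrays. No Rptor array reached any WT array of its population. The difference was -1.75 ± 0.36 in CMPs (limma, adjusted p = 0.00211), -1.51 ± 0.36 in GMPs (adjusted p = 0.00782) and -1.52 ± 0.32 in Lin- + M-CSF cells (adjusted p = 0.00264). Without WT Lin- + M-CSF replicate 3 the difference in the cultured cells was -1.01 (adjusted p = 0.000424) and with the cultured arrays fitted alone the call was lost (adjusted p = 0.0558).

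**Figure D2:**
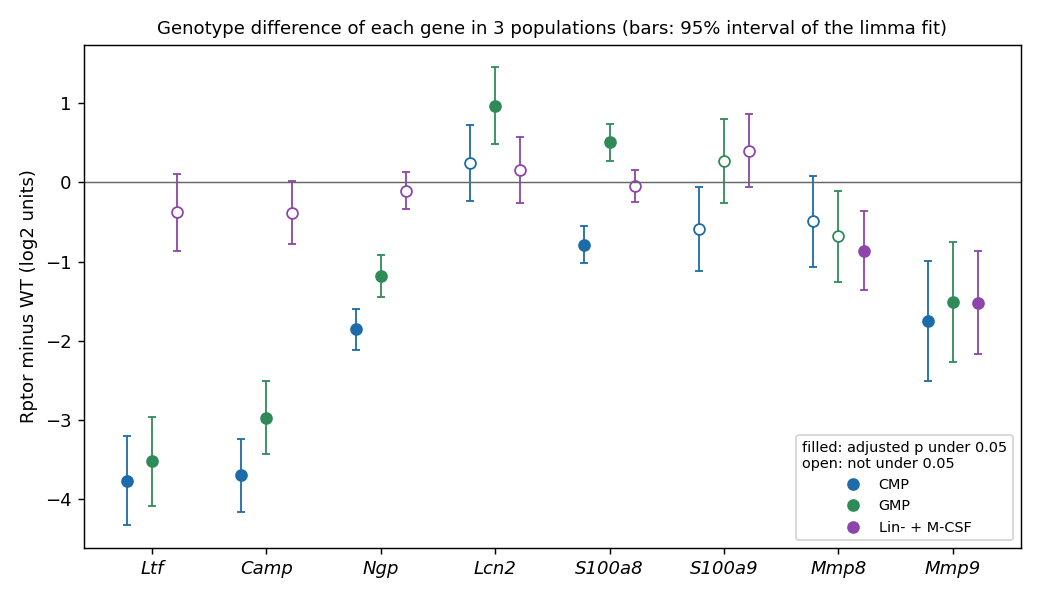
Rptor minus WT difference in log2 units (vertical axis) of each gene (horizontal axis) for CMPs (blue), GMPs (green) and Lin- + M-CSF cells (purple), with 95% intervals of the limma fit; filled points have an adjusted p under 0.05. Ltf, Camp and Ngp have filled points far below 0 in CMPs and GMPs and open points near 0 in Lin- + M-CSF cells, while Mmp9 has a filled point in each population.

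The genotype difference itself differed between populations for 4 of the genes. Between GMPs and CMPs, S100a8 had an interaction of 1.29 ± 0.16 log2 units (limma, adjusted p = 0.000118) and Ngp one of 0.68 ± 0.18 (adjusted p = 0.0481), and 2.50% of all tested genes were called. Ltf had an interaction of 0.24 ± 0.38 with a 95% interval of -0.55 to 1.03. The interaction of Ngp rested on its threshold: leaving out any CMP or GMP array other than Rptor CMP replicate 3, WT CMP replicate 1 or WT GMP replicate 2 ended its call, with an adjusted p of 0.0638 to 0.158. Between Lin- + M-CSF cells and CMPs the interactions were 3.39 ± 0.36 for Ltf, 3.32 ± 0.29 for Camp, 1.76 ± 0.17 for Ngp and 0.74 ± 0.15 for S100a8 (adjusted p from 2.39e-07 to 0.00302), with 7.77% of all tested genes called. Between Lin- + M-CSF cells and GMPs they were 3.15 ± 0.36 for Ltf, 2.59 ± 0.29 for Camp and 1.08 ± 0.17 for Ngp, and -0.55 ± 0.15 for S100a8 (adjusted p = 0.0386), with 4.77% called. That call of S100a8 was lost when any array of the 4 groups other than WT GMP replicate 2, Rptor Lin- + M-CSF replicate 4 or WT Lin- + M-CSF replicate 1 or 4 was left out, with an adjusted p of 0.053 to 0.117. For Mmp9 the interactions were 0.23 ± 0.51, 0.23 ± 0.48 and -0.005 ± 0.48, and none was called. These comparisons share arrays with each other and with the genotype comparisons.

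All 8 genes had higher means in the cultured cells than in the sorted cells of the same genotype. None of the 8 was called between WT GMPs and WT CMPs by limma, and 0 had an unadjusted p under 0.05, beside 6.65% of all tested genes called higher and 4.35% called lower. The 2 groups overlapped for all 8, whereas 35.2% of all tested genes had groups that did not overlap. Between Rptor GMPs and Rptor CMPs 4 were higher in GMPs, with S100a8 at 1.34 ± 0.11 log2 units, S100a9 at 0.89 ± 0.26, Lcn2 at 0.74 ± 0.23 and Ngp at 0.48 ± 0.13, where 12.5% of all tested genes were higher. Calls of Lcn2 and S100a9 were lost without Rptor CMP replicate 1 or Rptor GMP replicate 2 (adjusted p from 0.0548 to 0.0803), and that of Lcn2 also without Rptor CMP replicate 2 (adjusted p = 0.0831). All 8 were higher in WT Lin- + M-CSF cells than in WT CMPs, by 0.73 ± 0.12 (Ngp) to 2.87 ± 0.26 (Mmp8), and than in WT GMPs, by 0.93 ± 0.12 (Ngp) to 2.84 ± 0.26 (Mmp8). In these comparisons 19.6% and 20.3% of all tested genes were higher and the median difference of all genes was -0.14 in both. The starting cells, the culture and the M-CSF differ together there and cannot be told apart.

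The order of the groups was not the same for all members. For Ltf, Camp and Ngp the means of both Lin- + M-CSF groups came first, then WT CMPs and WT GMPs, which overlapped, and then the Rptor CMPs and GMPs. For Ltf the means of the last 2 groups were 6.18 ± 0.08 in Rptor CMPs and 6.16 ± 0.15 in Rptor GMPs (SD, n = 3 each), and they overlapped. Lcn2 had the opposite order among the sorted cells, with Rptor GMPs (9.74 ± 0.11) above Rptor CMPs (9.0 ± 0.28), and both means above those of WT GMPs (8.76 ± 0.13) and WT CMPs (8.75 ± 0.13), the last 3 overlapping with their neighbours. S100a8 ran from Rptor GMPs (11.57 ± 0.07) through WT GMPs (11.06 ± 0.12) and WT CMPs (11.01 ± 0.19), which overlapped, to Rptor CMPs (10.23 ± 0.18). For Mmp9 the mean of Rptor Lin- + M-CSF cells, 7.19 ± 0.34 (SD, n = 4), was within the spread of WT GMPs, 7.11 ± 0.27 (SD, n = 3).

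Replicate 3 of the WT Lin- + M-CSF group stood above the other 3 WT arrays for all 8 genes, and replicate 4 below them for all 8. Replicate 3 exceeded the nearest of the others by 1.80 log2 units for Mmp9, 1.28 for Ltf, 1.07 for Lcn2 and 1.00 for Mmp8. The gap was 0.53 for S100a9, 0.43 for Camp, 0.30 for Ngp and 0.08 for S100a8. Among all tested genes, a gap at least as large was found for 0.108% at the size of Mmp9, 0.301% at that of Ltf and 17.6% at that of S100a8. Replicate 3 was singled out before these shares were computed, so they are descriptive and are not p-values. An array above or below the rest is common in itself, since 26.4% of all tested genes were highest in replicate 3 and 27.7% lowest. WT replicate 4 was lowest for 27.3% of all tested genes. Among Rptor Lin- + M-CSF arrays, replicate 4 was highest for 6 members and for 20.6% of all tested genes. Rptor replicate 3 was lowest for 6 members and for 22.5% of all tested genes.

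**Figure D3:**
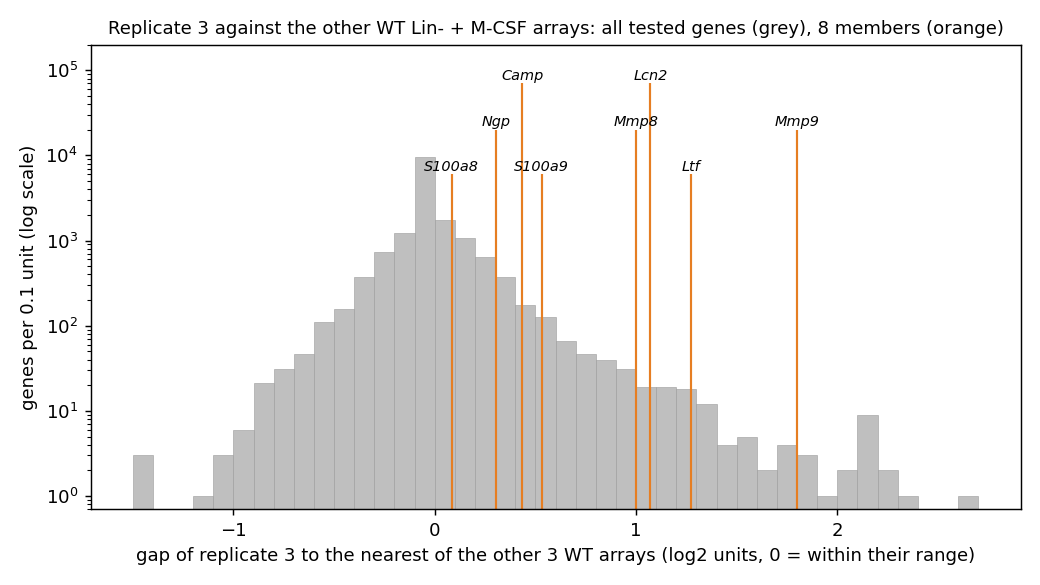
Number of tested genes (vertical axis, log scale) by the gap of WT Lin- + M-CSF replicate 3 to the nearest of the other 3 WT arrays (horizontal axis, log2 units, positive where replicate 3 is highest), in bins of 0.1. Orange lines mark the 8 members, from 0.08 for S100a8 to 1.80 for Mmp9; genes for which replicate 3 is neither highest nor lowest have a gap of 0 and fall in the bar just left of 0.

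In the same array 102 genes were at least 1 log2 unit above the other 3 and 7 at least 1 unit below. The 10 non-member genes furthest above were Ceacam10 (10.12 in replicate 3, against at most 7.48 in the others), Mmp25, Ly6g, 1700047M11Rik, Scrg1, Dhrs9, Ankrd22, Cd101, Il1b and Cstdc6. Ly6g, the surface antigen used to define mouse neutrophils, was at 9.84 there and between 7.18 and 7.62 in the other 3 WT arrays. All 17 other secondary and gelatinase granule genes and all 19 other mature neutrophil genes were highest in replicate 3, whereas 0 of 8 primary granule genes were highest and 6 of 8 were lowest. The mean of 5 mature neutrophil markers (Ly6g, Cxcr2, Retnlg, Stfa2l1 and Mmp25) was 10.64 in replicate 3 and at most 8.86 in the other WT arrays. Mast cell and basophil markers were lowest in replicate 3 for 6 of 6 genes. So were megakaryocyte markers for 4 of 5, eosinophil markers for 5 of 7 and dendritic cell markers for 4 of 6. T and NK cell markers were lowest there for 5 of 7 and highest for 2. B cell markers were highest there for 4 of 5 genes, and monocyte markers for 4 of 8 with 1 lowest. The part of these cells in the differences was not tested, and in such bulk samples fewer cells of a type and less RNA per cell cannot be told apart.

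Without WT replicate 3 the genotype comparison of the Lin- + M-CSF cells called 3 of the 8 genes, where 10.6% of all tested genes were called (5.82% higher and 4.80% lower). Lcn2 was then higher by 0.46 (limma, adjusted p = 0.0254) and S100a9 by 0.65 (adjusted p = 0.0321), Mmp9 stayed lower, and Mmp8 was not called. Ltf, Camp, Ngp and S100a8 were not called with or without that array. The median difference of the members was -0.01 without it, beside -0.24 with it. Among the other mature neutrophil genes, 7 of 19 were higher and 2 lower without it, beside 3 higher and 2 lower with it, and among the other secondary and gelatinase granule genes 3 of 17 were higher and 1 lower, beside 1 higher and 2 lower. Replicate 3 was the highest WT array for all 8 members and for every gene of these lists. Leaving it out can therefore only raise their Rptor minus WT differences, so the added higher calls are no separate support. Without WT replicate 4, the lowest for all 8 members, Lcn2 was instead at -0.03 (limma, adjusted p = 0.951). The S100a9 difference was as low as 0.10 with an array left out.

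Other genes of the granule programme are given as lists. Beside these and later list counts, 11.4% of all tested genes were called in CMPs, 11.9% in GMPs and 12.5% after culture. A count near such a share is not particular to its list. Of 17 other secondary and gelatinase granule genes, 1 rose and 5 fell in Rptor CMPs, with a median of -0.48 against -0.01 for all genes. They included Lyz2, a lysozyme (-0.71 ± 0.09, limma, adjusted p = 1.41e-05), the integrin subunit Itgam (-1.09 ± 0.17, adjusted p = 0.000109), Wfdc21 (-1.01 ± 0.19) and the protease inhibitor Slpi (-0.61 ± 0.13). In Rptor GMPs 2 rose and 1 fell, namely Chil3, a chitinase-like protein (1.91 ± 0.21, adjusted p = 1.37e-06), Anxa1 (0.72 ± 0.18) and Lyz2 (-0.90 ± 0.09). In Rptor Lin- + M-CSF cells 1 rose, Chil3 (0.57 ± 0.18), and 2 fell, the metal transporter Slc11a1 (-1.52 ± 0.22, adjusted p = 6.26e-05) and Lyz2 (-0.24 ± 0.08, adjusted p = 0.0492, and 0.122 without WT replicate 3).

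Primary granule genes fell in Rptor CMPs for 5 of 8, with Fcnb at -1.84 ± 0.21 (limma, adjusted p = 2.17e-06), Prtn3 at -0.42 ± 0.10, Elane at -0.44 ± 0.12, Prss57 at -0.65 ± 0.19 and Mpo at -0.31 ± 0.09. In Rptor GMPs 0 of 8 were called, and in Rptor Lin- + M-CSF cells Prss57 alone rose (0.64 ± 0.16). Mpo, myeloperoxidase, was at 12.84 ± 0.08 in Rptor GMPs and 12.85 ± 0.03 in WT GMPs (SD, n = 3 each). Of 19 other mature neutrophil genes, 1 rose and 4 fell in Rptor CMPs. The decoy receptor Il1r2 rose (1.99 ± 0.35), and Retnlg, Fpr2, Ly6g and the chemokine receptor Cxcr2 fell (-0.87 ± 0.28 for Cxcr2 to -1.49 ± 0.40 for Fpr2). In Rptor GMPs 3 rose, among them Il1r2 (3.67 ± 0.35, adjusted p = 1.99e-07), and 2 fell. In Rptor Lin- + M-CSF cells 3 rose, among them Stfa1 and Stfa3, and 2 fell, Ly6g (-3.33 ± 0.37, adjusted p = 3.66e-06) and the cytokine Il1b (-2.58 ± 0.35). Without WT replicate 3 these were at -2.72 and -2.02 and still called.

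**Figure D4:**
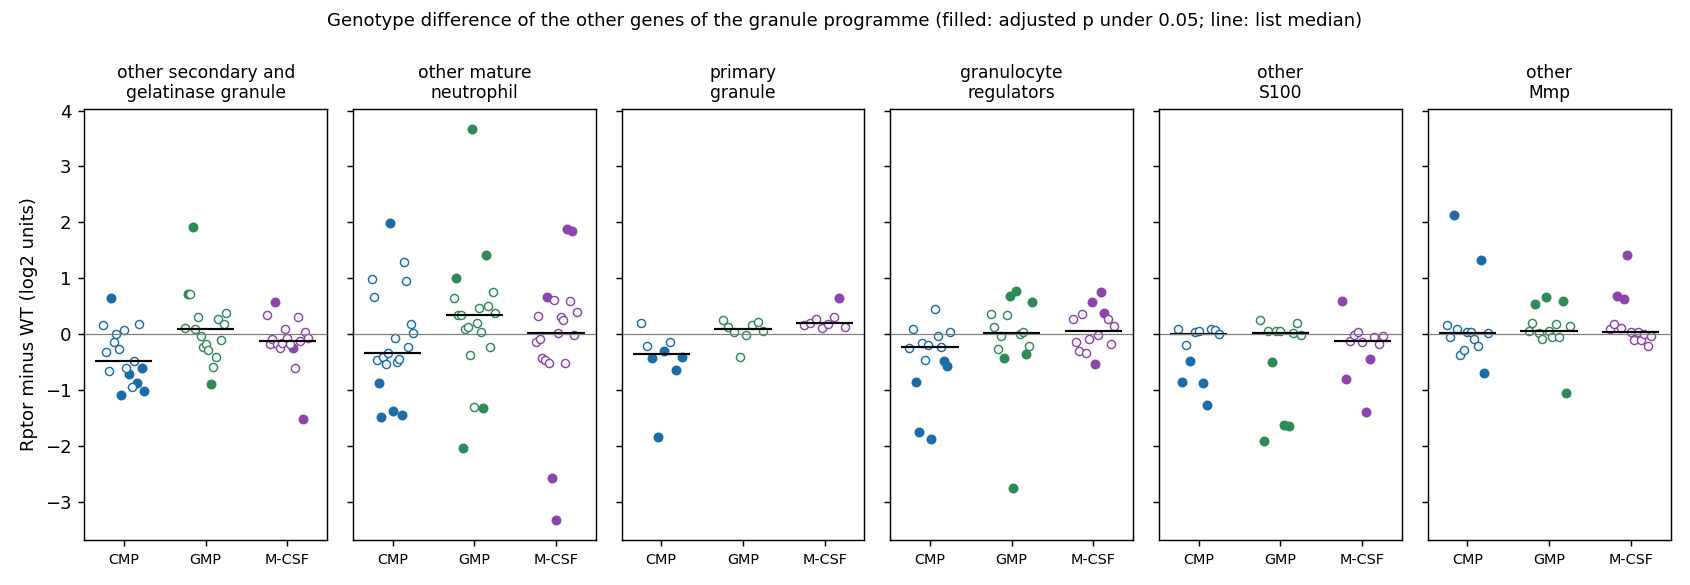
Rptor minus WT difference in log2 units (vertical axis) of the genes of 6 lists (panels) by population (horizontal axis: CMP, GMP and Lin- + M-CSF); filled points have an adjusted p under 0.05 and lines are list medians. In the primary granule panel 5 filled points lie below 0 in CMPs and 0 are filled in GMPs, and in the other secondary granule panel the median is -0.48 in CMPs and 0.09 in GMPs.

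Among the regulators of granulocyte genes, Cebpe, which encodes C/EBP epsilon, fell in Rptor CMPs by 1.76 ± 0.17 (limma, adjusted p = 4.4e-07) but was at -0.04 ± 0.17 in GMPs (adjusted p = 0.944) and 0.35 ± 0.15 in Lin- + M-CSF cells (adjusted p = 0.142). Its interaction was 1.72 ± 0.25 between GMPs and CMPs (adjusted p = 0.000303). In GMPs, Ltf, Camp and Ngp were lower beside that Cebpe difference. The part of Cebpe in their levels was not tested, and the C/EBP epsilon protein was not measured. Spi1, which encodes PU.1, fell in Rptor CMPs (-0.58 ± 0.12, adjusted p = 0.00169) and was not called in the other populations. Gfi1 rose in Rptor GMPs (0.69 ± 0.20, adjusted p = 0.0309) and in Rptor Lin- + M-CSF cells (0.57 ± 0.18, adjusted p = 0.0378, and 0.12 without WT replicate 3). Cebpa, Cebpb and the granulocyte colony-stimulating factor receptor Csf3r were not called in any of the 3 genotype comparisons. Over the 14 regulators, 0 rose and 5 fell in Rptor CMPs, 3 rose and 3 fell in GMPs, and 3 rose and 1 fell in Lin- + M-CSF cells. Irf8, which drives monocyte fate, fell in each (-1.88 ± 0.18, -2.76 ± 0.18 and -0.54 ± 0.16).

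Relatives of the members in the same gene families were measured too. Of 11 other S100 genes, 4 fell and 0 rose in Rptor CMPs and in Rptor GMPs, and 3 fell and 1 rose in Rptor Lin- + M-CSF cells. S100a4, S100a6 and S100a10 fell in all 3 (S100a6 in Lin- + M-CSF cells with an adjusted p of 0.0255, and 0.0931 without WT replicate 3), with S100a10 at -1.92 ± 0.13 in GMPs (limma, adjusted p = 1.19e-09), where S100a8 rose. Of 13 other matrix metalloproteinase genes, 2 rose and 1 fell in CMPs, 3 rose and 1 fell in GMPs, and 3 rose and 0 fell in Lin- + M-CSF cells. Mmp14, a membrane-bound metalloproteinase, rose in all 3 (2.13 ± 0.15, 0.54 ± 0.15 and 0.69 ± 0.13), in the populations in which Mmp9 fell.

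Markers of other cell types moved with the genotype too, and their part in the results was not tested. Monocyte markers fell for 6 of 8 in CMPs, 6 of 8 in GMPs and 7 of 8 in Lin- + M-CSF cells, with 0 rising; their mean level was 7.85 to 8.01 in Rptor CMPs and 9.07 to 9.15 in WT CMPs, 8.32 to 8.47 in Rptor GMPs and 9.68 to 9.70 in WT GMPs, and 8.36 to 8.50 in Rptor Lin- + M-CSF cells and 9.81 to 10.14 in WT Lin- + M-CSF cells. These ranges did not overlap between genotypes in any population. Mature neutrophil markers, which overlap the mature neutrophil list, fell for 3 of 5 in CMPs and 1 of 5 in each of the other populations, with 0 rising (1 rose and 1 fell in Lin- + M-CSF cells without WT replicate 3). Their mean level was 5.51 to 5.95 in Rptor CMPs and 6.27 to 6.57 in WT CMPs, 5.49 to 5.98 in Rptor GMPs and 5.98 to 6.48 in WT GMPs, and 8.09 to 8.61 in Rptor Lin- + M-CSF cells and 8.53 to 10.64 in WT Lin- + M-CSF cells. Ly6g averaged 4.40 in Rptor CMPs, below the array medians of 4.76 to 4.91, and 5.78 in WT CMPs. Stfa2l1 alone of these markers went the other way in CMPs, with a difference of 0.96 ± 0.32 that was not called (limma, adjusted p = 0.0567). Erythroid markers rose for 4 of 5 in CMPs, 2 of 5 in GMPs and 4 of 5 in Lin- + M-CSF cells, and in CMPs their mean level was 9.24 to 9.97 in Rptor and 8.04 to 8.25 in WT arrays. Eosinophil markers fell for 4 of 7 in CMPs and GMPs, and in Lin- + M-CSF cells 2 fell and 1 rose (3 and 1 without WT replicate 3). Genes of the surface markers used to gate progenitors also differed between genotypes. Of 5 such genes, 2 rose and 2 fell in Rptor CMPs, 2 rose and 1 fell in Rptor GMPs, and 3 rose and 0 fell in Rptor Lin- + M-CSF cells (2 and 0 without WT replicate 3). Cd34 fell in Rptor CMPs (-1.08 ± 0.15) and Rptor GMPs (-1.37 ± 0.15), and Il7r, the interleukin 7 receptor, rose in both (1.66 ± 0.18 and 1.13 ± 0.18). Kit, the stem cell factor receptor, rose in Rptor CMPs (0.42 ± 0.12). Fcgr3, an Fc gamma receptor whose surface level is high on GMPs, fell in Rptor CMPs (-0.64 ± 0.14) and was at -0.07 ± 0.14 in GMPs. It averaged 10.48 in Rptor GMPs and 8.83 in Rptor CMPs, and 10.55 in WT GMPs and 9.47 in WT CMPs.

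The genes with the most similar profiles over the 20 arrays, by the root mean square difference of mean-centred log2 signals, differed between members. They were Lst1, Fpr2 and Ighm for Ltf (0.78 to 0.94), Lst1, Ighm and Cd180 for Camp (0.64 to 0.87), and Alcam, Fcer1g and Idh1 for Ngp (0.27 to 0.33). For Lcn2 they were Lpcat2, Nfkbia and Anxa1 (0.19 to 0.26), for S100a8 Peli2, C130050O18Rik and Slpi (0.25 to 0.27), and for S100a9 Gm10865, Chil1 and Arhgap27 (0.29 to 0.33). For Mmp8 they were Gsap, Ankrd22 and C5ar1 (0.31 to 0.36), and for Mmp9 A530064D06Rik, Mmp25 and Hacd4 (0.45 to 0.53). The differences of Ltf and Camp from their nearest genes were larger than their distance from each other. Such distances grow with a gene's own spread, and the SD over the arrays ran from 0.62 for Lcn2 to 2.05 for Ltf. An order of such distances, also among pairs of members, is therefore an order of distance and not of likeness in shape.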

How the data were processed

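Total RNA of sorted bone marrow cells (1 to 5 ng) was amplified with NuGEN reagents and biotinylated before hybridization, per the labels' protocols. The deposited values are log2 signals of 41345 probe sets (range 1.77 to 13.2), and RMA, Partek 6.6 and limma are named, with no role or order, per the submitters' processing notes. RMA includes quantile normalization, which removes changes shared by most transcripts. A joint normalization of all arrays is not stated. Array medians were 4.76 to 4.91. Probe sets were chosen and filtered by level, and Ly6g was set beside the array medians. Signals of different probe sets were not compared otherwise, and detection above background was not assessed. Precision is limited by the number of arrays.

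Of the probe sets, 23521 had 1 gene symbol, 1814 several and 16010 none. The brightest probe set on average was kept for each of 22180 genes, and the 16638 genes at or above the 25th percentile of single-gene probe sets (log2 3.86) were tested. One limma 3.58.1 fit (R 4.3.3) of all 20 arrays with a mean per group gave the differences, Rptor minus WT, with Benjamini-Hochberg adjustment over all tested genes in each of 10 comparisons; an interaction is the difference between 2 genotype differences. Ranges of 3 against 3 arrays allow an exact permutation p no lower than 0.1. The fit was tested on simulated data with independent normal noise and the same spread of a gene in all groups. That does not check it for unequal spreads, such as an SD for Mmp9 of 1.04 in WT Lin- + M-CSF cells and 0.10 in Rptor GMPs. The members, the 7 pathway lists and 11 marker lists (152 genes tested besides the members) and the promoter patterns were chosen with earlier results of these data known. Named genes are all members, 7 regulators and pathway genes, up to 4 list genes of smallest p per genotype comparison, 3 nearest profiles per member and the 10 genes furthest above in WT replicate 3; Mpo, Cxcr2 in CMPs and marker genes fall outside that rule and were chosen after their values were seen. Alternatives were other filters on dim genes, means of probe sets, fits of the compared groups alone, a replicate block, array weights, a trended robust eBayes, median centring, repeated quantile normalization and leaving out each array. Figures were drawn with Python 3.11.15 and matplotlib 3.10.9.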

Additional observations from a re-analysis of the deposited data

Results flagged for a closer look

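The genotype difference (Rptor minus WT, log2 units) differed between populations by limma's interaction test for 4 of the 8 genes, which gave 10 called interactions. Between Lin- + M-CSF cells and CMPs these were 3.39 for Ltf, 3.32 for Camp, 1.76 for Ngp and 0.74 for S100a8. Between Lin- + M-CSF cells and GMPs they were 3.15 for Ltf, 2.59 for Camp, 1.08 for Ngp and -0.55 for S100a8, and between GMPs and CMPs they were 1.29 for S100a8 and 0.68 for Ngp. Ltf, Camp and Ngp were lower in Rptor CMPs and GMPs and not called in Rptor Lin- + M-CSF cells, and S100a8 was lower in Rptor CMPs and higher in Rptor GMPs. By Dixon's test, run gene by gene, no group of 4 arrays held an outlier in any member. For Mmp8 the gap of WT Lin- + M-CSF replicate 3 reached 0.828 of the group's range, just under the critical ratio. With 4 arrays only a gap that fills most of the range is called, and a shift shared by genes is not seen. The test therefore cannot clear replicate 3, the highest WT Lin- + M-CSF array for all 8 members.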

How the results depend on the processing

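Of 741 alternative values for the 43 called results of single members, 705 kept direction and call, 36 kept direction and lost the call, and 0 changed sign. In CMPs and GMPs no genotype call of a member was lost under any alternative run, and calls were gained: 5 to 7 members were called in CMPs and 6 to 7 in GMPs, with S100a9 and Mmp8 gained in CMPs and Mmp8 in GMPs. Results not called kept direction and side in 612 values, became called in 16 and changed sign in 39.

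The number of members called in Lin- + M-CSF cells (2) was 0 with the compared groups fitted alone, 1 with the replicate block or with array weights, and 1 to 3 with an array left out. The GMP and CMP interaction (2 called) had 1 with no filter, with the replicate block and with arrays centred on their median, 4 with the compared groups fitted alone or array weights, and 1 to 2 with an array left out. Rptor GMPs against Rptor CMPs (4 called) had 2 to 5 with an array left out. The cause of these changes was not tested.

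Signs turned for values near 0. Between WT GMPs and WT CMPs, Lcn2 (0.016) was -0.036 with array weights, -0.029 after repeated quantile normalization and -0.039 to 0.089 with an array left out, and Mmp8 (0.021) was -0.059, -0.011 and -0.16 to 0.21; with an array left out S100a8 was -0.060 to 0.11 and S100a9 -0.081 to 0.10. Between Rptor GMPs and Rptor CMPs, Ltf (-0.025) was 0.079, 0.049 and -0.11 to 0.027 in the same order, and Mmp8 was -0.26 to 0.014 with an array left out. The M-CSF and CMP interaction of Lcn2 (-0.096) was 0.052 with array weights and -0.28 to 0.21 with an array left out, and that of Mmp9 was -0.024 to 0.74. The M-CSF and GMP interaction of Mmp9 (-0.005) was 0.036 with array weights, 0.022 with median centring and -0.26 to 0.51 with an array left out, that of Mmp8 was -0.36 to 0.088 and that of S100a9 -0.17 to 0.39. In Lin- + M-CSF cells the genotype difference with an array left out was -0.19 to 0.0026 for Ngp, -0.091 to 0.0028 for S100a8 and -0.028 to 0.46 for Lcn2.

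Deviations of same-numbered Rptor and WT arrays from their group means correlated at -0.344 to 0.119. The highest correlation with an array of another number was -0.0471 to 0.337. With 3 or 4 arrays per group, these values cannot decide whether replicate numbers pair the samples. Besides the 2 changes above, the replicate block ended the S100a8 call of the M-CSF and GMP interaction (limma, adjusted p = 0.0548). A block shared by populations, added after seeing the data, was used between populations.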

Other observations

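Receptors and inhibitors of the member proteins were measured by 11 tested genes. Beside the counts here and below, 11.4% of all tested genes were called in CMPs, 11.9% in GMPs and 12.5% after culture. In Rptor CMPs 1 rose and 1 fell, in Rptor GMPs 3 rose and 1 fell, and in Rptor Lin- + M-CSF cells 1 rose and 2 fell. Lrp1, an endocytic receptor that takes up Ltf and Mmp9, rose in Rptor CMPs (0.67 ± 0.13, limma, adjusted p = 0.00102) and Rptor GMPs (0.85 ± 0.13) and fell in Rptor Lin- + M-CSF cells (-0.78 ± 0.11). Fpr2, a receptor for the cathelicidin peptide, fell in Rptor CMPs (-1.49 ± 0.40) and Rptor GMPs (-2.04 ± 0.40). Tlr4, a receptor for calprotectin, rose in Rptor GMPs (0.71 ± 0.20), and Timp3, an inhibitor of metalloproteinases, rose in Rptor Lin- + M-CSF cells (0.92 ± 0.14).

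Dendritic cell markers rose for 4 of 6 genes in Rptor CMPs, 2 of 6 in Rptor GMPs and 0 of 6 in Rptor Lin- + M-CSF cells. In CMPs 1 of 7 T and NK cell markers rose and 1 fell, in GMPs 0 were called, and 4 of 7 rose and 0 fell in Rptor Lin- + M-CSF cells, with a mean level of 7.04 to 7.59 in Rptor and 6.49 to 6.85 in WT arrays. Of 6 mast cell and basophil markers, 1 rose and 0 fell in Rptor CMPs, 4 rose and 0 fell in Rptor GMPs, and 1 rose and 2 fell in Rptor Lin- + M-CSF cells (0 and 3 without WT replicate 3). Of 7 macrophage markers, 3 rose and 0 fell in Rptor CMPs, 2 rose and 2 fell in Rptor GMPs, and 0 rose and 2 fell in Rptor Lin- + M-CSF cells (0 and 1 without WT replicate 3). Megakaryocyte markers rose for 0 of 5 in Rptor CMPs, 1 of 5 in Rptor GMPs and 3 of 5 in Rptor Lin- + M-CSF cells, with 0 falling. B cell markers fell for 1 of 5 in Rptor CMPs, 1 of 5 in Rptor GMPs and 0 of 5 in Rptor Lin- + M-CSF cells, with 0 rising.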
